A study of Mus musculus with 9 samples.

Results

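The genes described here are 7 transcripts that mark or operate the thick ascending limb of the loop of Henle: Umod, Slc12a1, Kcnj1, Bsnd, Ptger3, Casr and Ppp1r1a. They were chosen by symbol, each matched 1 Ensembl gene ID, and they are 7 of 55385 genes listed and 7 of 13718 genes tested. The material was whole kidney of C57BL/6 mice, and each of 3 groups had 3 biological repeats, read by bulk RNA-seq. Cis3d kidneys were taken 3 days and Cis7d kidneys 7 days after an intraperitoneal dose of 20 mg/kg cisplatin, a platinum drug that injures the tubule, and Sham mice received normal saline in the same way. The labels give neither age nor sex, nor the time at which Sham kidneys were taken. Values are FPKM, fragments mapped to a transcript scaled for its length and for library size. The design sets the day 3 and the day 7 kidney after a single injury against Sham and against each other.

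The thick ascending limb reabsorbs salt without water, and so dilutes the tubule fluid and builds the gradient by which urine is concentrated. Sodium, potassium and chloride enter its cells through the cotransporter encoded by Slc12a1, potassium returns to the lumen through the channel encoded by Kcnj1, and chloride leaves across the basolateral membrane through channels whose subunit barttin is encoded by Bsnd. The positive charge left in the lumen drives calcium and magnesium between the cells, and the segment makes uromodulin, the main protein of normal urine. Kcnj1, Bsnd, Ptger3 and Casr are also expressed in other tubule segments, so their levels in a whole kidney are not those of the thick ascending limb alone. In bulk tissue, fewer cells of a type and less RNA per cell cannot be told apart.

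In Sham kidneys the 7 genes covered a wide range of abundance. Umod averaged 1184 FPKM, which placed it at rank 33 of all listed genes. It was followed by Ppp1r1a at 208 FPKM, Slc12a1 at 79.8 FPKM, Kcnj1 at 53.4 FPKM and Bsnd at 26.5 FPKM. The receptor genes Ptger3 and Casr stood lowest, at 4.59 and 3.55 FPKM. In this order the lowest Sham library of Umod lay above the highest of Ppp1r1a, and the lowest of Ppp1r1a above the highest of Slc12a1. The Sham libraries of Slc12a1 overlapped those of Kcnj1, and those of Ptger3 overlapped those of Casr.

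The libraries differed in ways that touch these genes. FPKM summed to between 421810 and 509537 per library, read depth is unknown because the files hold no counts, and log2(FPKM + 1) correlated at 0.942 or more between any pair of libraries of a group. Within Cis3d, replicate 2 was the highest library for each of the 7 genes. Of 7 markers of the distal convoluted and connecting tubule 3 were highest in that library and 4 in replicate 1, and of 10 proximal tubule markers 8 were highest in replicate 3, 2 in replicate 1 and 0 in replicate 2. Within Sham, replicate 3 was the lowest library for Umod, Slc12a1, Kcnj1, Bsnd, Ptger3 and Ppp1r1a, and Casr was lowest in replicate 1.

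**Figure D1:**
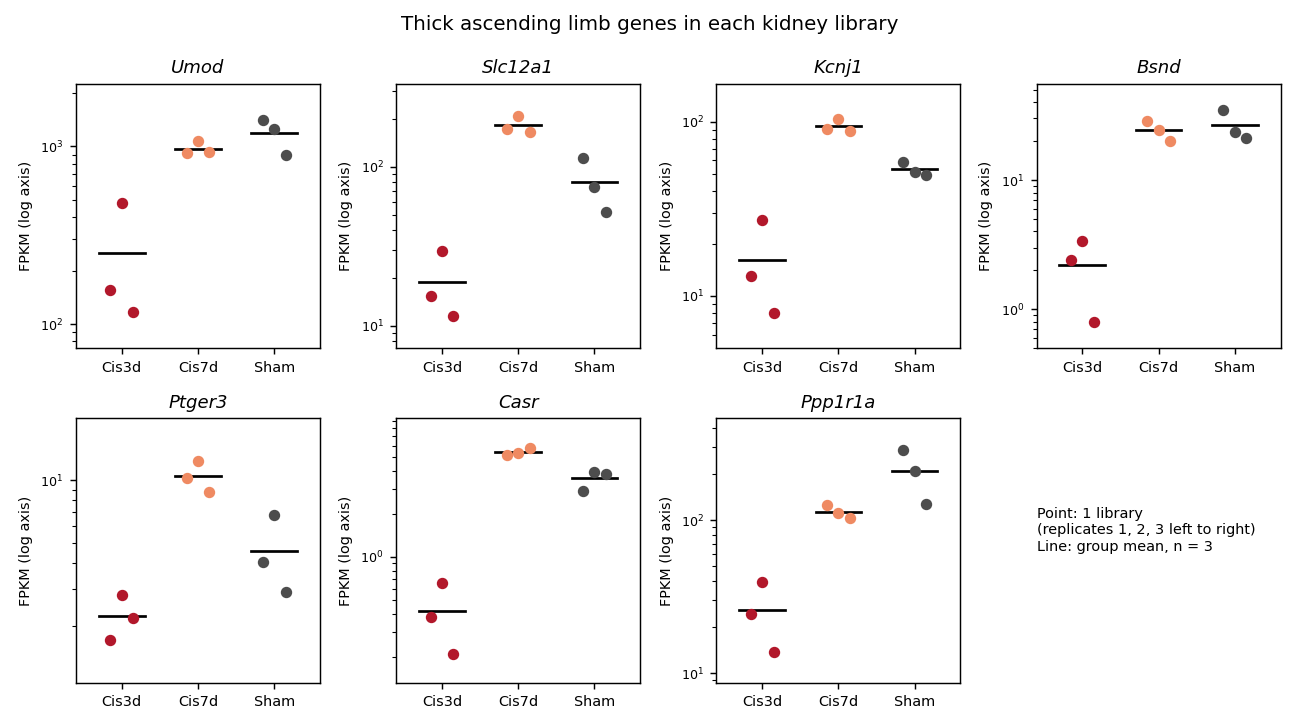
FPKM of each gene on a log axis, with 1 point per library and a line at the mean of 3 libraries, in Cis3d, Cis7d and Sham kidneys. In each panel all 3 Cis3d points lie below all Cis7d and all Sham points, and Cis7d points lie above Sham for Slc12a1, Kcnj1, Ptger3 and Casr, below Sham for Ppp1r1a, and among the Sham points for Umod and Bsnd.

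At day 3 after cisplatin every one of the 7 genes was lower than in Sham kidneys, with no overlap between the groups. On the log2(FPKM + 1) scale the fall was largest for Bsnd, Ppp1r1a and Umod and smallest for Ptger3; with a pseudocount of 0.1 Casr, at -2.90, passed Umod, at -2.50. All 7 passed the test (limma, Benjamini-Hochberg adjustment over all tested genes, threshold 0.05), where 20.6% of all tested genes were called lower. Groups in which each Cis3d library lay below each Sham library were found for 21.8% of tested genes. The median log2 fold change of the 7 genes was -2.06, and that of all tested genes was 0.25. Of all calls in this comparison 65.6% were higher; median-of-ratios scaling gave 50.8%, with medians of -2.35 for the 7 genes and 0.03 for all genes.

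Umod (ENSMUSG00000030963; chromosome 7, 119462711 to 119479282 on GRCm38, minus strand) was at 154.6, 480.93 and 117.15 FPKM in the 3 Cis3d libraries and at 1409.45, 1246.6 and 894.46 FPKM in Sham. Uromodulin, its product, is secreted into the lumen, where it forms filaments. The log2 fold change was -2.49 ± 0.45 (SE, adjusted p = 0.00145, limma). Cis3d replicate 2 kept more Umod than the other two Cis3d libraries, and without that library the change was -3.10.

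Slc12a1 (ENSMUSG00000027202; chromosome 2, 125152505 to 125230002, plus strand) stood at 15.32, 29.5 and 11.6 FPKM in Cis3d and at 113.07, 74.56 and 51.64 FPKM in Sham. It encodes the cotransporter blocked by loop diuretics, and its log2 fold change was -2.06 ± 0.35 (adjusted p = 0.00107, limma). Kcnj1 (ENSMUSG00000041248; chromosome 9, 32372493 to 32399197, plus strand), which encodes the potassium channel ROMK, had 12.94, 27.26 and 8.03 FPKM in Cis3d and 58.71, 51.7 and 49.77 FPKM in Sham. The Sham libraries of Kcnj1 were close together while the Cis3d libraries were spread more than 3-fold, and the change was -1.83 ± 0.34 (adjusted p = 0.00171, limma).

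Bsnd (ENSMUSG00000025418; chromosome 4, 106483456 to 106492283, minus strand) was at 2.41, 3.4 and 0.8 FPKM in Cis3d, against 34.91, 23.62 and 21.01 FPKM in Sham. Barttin is needed for basolateral chloride channels to reach the membrane and conduct, and its transcript fell by 3.16 ± 0.32 on the log2 scale (adjusted p = 6.64e-05, limma), the largest of the 7 changes. Ppp1r1a (ENSMUSG00000022490; chromosome 15, 103530279 to 103538003, minus strand), which encodes an inhibitor of protein phosphatase 1 that acts once protein kinase A has phosphorylated it, had 24.17, 39.57 and 13.82 FPKM in Cis3d and 288.66, 208.63 and 126.57 FPKM in Sham. It fell by 3.00 ± 0.38 (adjusted p = 0.000209, limma).

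The receptor genes were lower by smaller amounts on this scale, on which changes of low genes are understated. Casr (ENSMUSG00000051980; chromosome 16, 36493696 to 36562141, minus strand) encodes the calcium-sensing receptor, which lowers salt and calcium uptake in this segment when plasma calcium rises. It had 0.38, 0.66 and 0.21 FPKM in Cis3d and 2.9, 3.93 and 3.82 FPKM in Sham, a log2 fold change of -1.69 ± 0.15 (adjusted p = 3.41e-05, limma), and of -2.90 with a pseudocount of 0.1 (adjusted p = 8.35e-05, limma). Ptger3 (ENSMUSG00000040016; chromosome 3, 157566892 to 157645888, plus strand) encodes the EP3 receptor for prostaglandin E2, which opposes the cyclic AMP signal of vasopressin.

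Ptger3 was at 1.7, 2.81 and 2.17 FPKM in Cis3d and at 4.05, 6.8 and 2.91 FPKM in Sham, and the highest Cis3d library came close to the lowest Sham library. Its log2 fold change was -0.75 ± 0.25 (adjusted p = 0.0303, limma). That call was lost without Cis3d replicate 1 (adjusted p = 0.0917), Cis3d replicate 3 (0.0691) or Sham replicate 2 (0.0905, log2 fold change -0.48), and also with no expression filter (0.0610) or with the 6 libraries of the comparison alone (0.0544). The other 6 genes kept their call under all 19 alternatives that gave a fold change.

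No member shares its locus with another well expressed gene. Antisense genes overlap Umod and Slc12a1 and a small RNA gene lies within Casr, and none of these exceeded 0.21 FPKM in any library. RefSeq promoter windows on GRCm38.p6, which run 250 bases before and 50 after the start, matched 5 of the 7 genes, and Bsnd and Ppp1r1a were not used there. The windows were searched on both strands for letters bound by factor families known in this segment: GTTAAT, of homeodomain factors; TCAAGGTCA, of estrogen-related receptors; ATGCAAAT, of POU factors; ACANNTGT, of Iroquois factors; and TATAAA, the TATA box. GTTAAT was found in 1 of the 5 windows, that of Umod, and in 7.1% of all 32851 windows. ACANNTGT was found in the windows of Umod and Casr, and in 7.38% of all windows. TCAAGGTCA (0.423% of all windows), ATGCAAAT (1.74%) and TATAAA (13.6%) did not occur in the 5 windows.

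Shown here are the bases before the start for both genes with a match and for Ptger3, the gene least reduced at day 3, each 5′ to 3′ in the direction of transcription with motif matches in capitals. Umod lies at chr7:119479263-119479512 (minus strand), Casr at chr16:36562135-36562384 (minus strand) and Ptger3 at chr3:157566626-157566875 (plus strand).
Umod: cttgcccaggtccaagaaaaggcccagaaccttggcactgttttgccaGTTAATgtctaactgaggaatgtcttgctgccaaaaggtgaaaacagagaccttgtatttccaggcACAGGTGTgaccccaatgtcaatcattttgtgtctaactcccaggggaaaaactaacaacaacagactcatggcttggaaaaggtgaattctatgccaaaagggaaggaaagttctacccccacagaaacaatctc
Casr: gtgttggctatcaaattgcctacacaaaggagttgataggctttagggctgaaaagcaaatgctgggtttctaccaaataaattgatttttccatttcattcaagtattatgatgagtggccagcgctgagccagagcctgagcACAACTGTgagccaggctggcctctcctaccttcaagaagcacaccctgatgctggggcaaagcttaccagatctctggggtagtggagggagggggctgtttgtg
Ptger3: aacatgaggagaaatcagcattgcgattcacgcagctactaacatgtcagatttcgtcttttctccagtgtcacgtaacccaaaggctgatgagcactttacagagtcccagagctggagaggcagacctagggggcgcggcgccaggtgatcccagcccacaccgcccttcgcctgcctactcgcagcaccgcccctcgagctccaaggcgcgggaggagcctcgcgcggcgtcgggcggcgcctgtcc
In the Umod window the capitals mark GTTAAT at position -202 from the start and ACAGGTGT at -136, and in the Casr window they mark ACAACTGT at -106. The window before Ptger3 is 62.0% G and C, against 45.2% before Umod and 48.8% before Casr. These matches describe letters only.

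At day 7 after cisplatin the 7 genes stood apart from their day 3 levels and no longer moved as one against Sham. All 7 were higher in Cis7d than in Cis3d kidneys, with no overlap, where 21.7% of all tested genes were called higher and 25.2% had each Cis7d library above each Cis3d library. Of the genes tested, 14.9% were both lower in Cis3d than in Sham and higher in Cis7d than in Cis3d. Against Sham, 3 of the 7 were called higher, none lower and 4 were not called, where 19.3% of all tested genes were called higher and 10.4% lower. Each Cis7d library lay above each Sham library for 4 of the 7 genes, which held for 29.5% of tested genes, and below it for 1, which held for 19.1%. Of all calls against Sham 64.9% were higher as deposited, 50.2% under median-of-ratios scaling and 84.7% after rescaling without mitochondrially encoded genes. These comparisons share libraries, so a Sham or Cis3d library that is off moves both of the comparisons that use it.

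Slc12a1 was at 172.39, 207.7 and 165.8 FPKM in Cis7d kidneys, above the 15.32 to 29.5 FPKM of Cis3d and above the 51.64 to 113.07 FPKM of Sham. Against Cis3d the log2 fold change was 3.30 ± 0.35 (adjusted p = 0.000106, limma); with a pseudocount of 0.1 it was 3.37, below Bsnd at 3.60 and Casr at 3.52. Against Sham it was 1.24 ± 0.35 (adjusted p = 0.0294, limma). Kcnj1 was at 90.57, 103.6 and 88.12 FPKM in Cis7d, also above every Sham library, with log2 fold changes of 2.64 ± 0.34 against Cis3d (adjusted p = 0.000279, limma) and 0.81 ± 0.34 against Sham (adjusted p = 0.109, not called). The 95% interval of the Kcnj1 difference from Sham ran between 0.03 and 1.58.

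Ptger3 was at 10.24, 12.37 and 8.73 FPKM in Cis7d, each above the highest Sham library at 6.8 FPKM. It changed by 1.83 ± 0.25 against Cis3d (adjusted p = 0.000390, limma) and by 1.08 ± 0.25 against Sham (adjusted p = 0.0140, limma). Casr was at 5.16, 5.32 and 5.84 FPKM in Cis7d, above 2.9 to 3.93 FPKM in Sham, and changed by 2.19 ± 0.15 against Cis3d (adjusted p = 1.22e-05, limma) and by 0.51 ± 0.15 against Sham (adjusted p = 0.0330, limma). Slc12a1, Ptger3 and Casr were thus called lower at day 3 and higher at day 7 against the same Sham libraries, a pattern that 1.79% of tested genes had. It was not limited to these genes, since 3 of 7 markers of the distal convoluted and connecting tubule had it too.

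The other 3 genes were not called against Sham. Umod was at 919.62, 1066.41 and 926.08 FPKM in Cis7d, within the range of the Sham libraries, and its log2 fold change against Sham was -0.26, with a 95% interval between -1.29 and 0.77 (adjusted p = 0.697, limma). Bsnd was at 28.45, 24.47 and 20.12 FPKM in Cis7d, interleaved with Sham, with a change of -0.10 and an interval between -0.83 and 0.64 (adjusted p = 0.845, limma). Ppp1r1a was at 125.22, 111.51 and 103.75 FPKM in Cis7d, just below the lowest Sham library at 126.57 FPKM, with a change of -0.79 ± 0.38 (adjusted p = 0.149, limma). Against Cis3d these genes were higher by 2.23 ± 0.45 (Umod, adjusted p = 0.00298), 3.06 ± 0.32 (Bsnd, adjusted p = 9.92e-05) and 2.21 ± 0.38 (Ppp1r1a, adjusted p = 0.00127), all by limma.

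**Figure D2:**
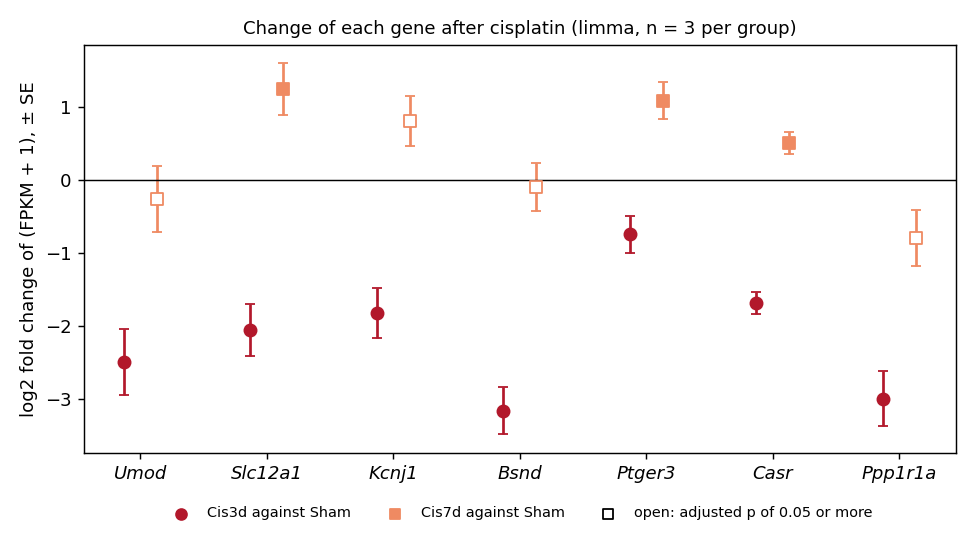
Log2 fold change of FPKM + 1 with its SE for each gene, Cis3d against Sham (circles) and Cis7d against Sham (squares), with open symbols for an adjusted p of 0.05 or more (limma, 3 libraries per group). All circles are below 0, between -3.16 and -0.75, whereas squares run from -0.79 for Ppp1r1a to 1.24 for Slc12a1.

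The day 7 differences from Sham were less stable than those at day 3. The call on Slc12a1 was lost without Cis7d replicate 1 (adjusted p = 0.0676), 2 (0.0904) or 3 (0.0637) or without Sham replicate 2 (0.0801) or 3 (0.0792). The call on Casr was lost without Cis7d replicate 1 (0.0692), 2 (0.0746) or 3 (0.103) or without Sham replicate 1 (0.0863) or 2 (0.0570), and that on Ptger3 without Cis7d replicate 2 (0.0519), all by limma. Casr was also not called with a pseudocount of 0.1 (0.158), with no filter (0.0815), under median-of-ratios scaling (0.0815) or under quantile normalization (0.119), and Slc12a1 was not with no filter (0.0754). Kcnj1 was called without Cis3d replicate 2 (0.01505) or 3 (0.0414) and with the 6 libraries of the comparison alone (0.00596).

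Base composition moved with the day 7 differences. The longest transcripts of Kcnj1, Slc12a1 and Ptger3 are 44.6%, 45.5% and 47.2% G and C, and these genes had the 3 largest positive differences from Sham. Those of Umod, Casr, Ppp1r1a and Bsnd are 51.5%, 53.2%, 55.3% and 55.8% G and C, and of these only Casr was higher. After a trend on GC content and transcript length was removed in each library, a step chosen after the data were seen, Slc12a1 stood at 0.88 (adjusted p = 0.193), Kcnj1 at 0.50 (0.417), Ptger3 at 0.90 (0.0774) and Casr at 0.58 (0.0594) against Sham, by limma, and none was called. In the corrected values the 3 Cis7d libraries still lay above all Sham libraries for these 4 genes, while Ppp1r1a, at -0.31, overlapped with Sham. The same correction left 7 of 7 genes lower in Cis3d than in Sham and 7 of 7 higher in Cis7d than in Cis3d. Of 13707 corrected genes, 2677 and 2874 were called so. In Cis7d against Sham 584 of these were called higher and 272 lower, against 2646 and 1429 of 13718 as deposited. Casr lost its call although its estimate was no smaller than as deposited (0.58 ± 0.15 against 0.51 ± 0.15). The share of all corrected genes without overlap was not computed.

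**Figure D3:**
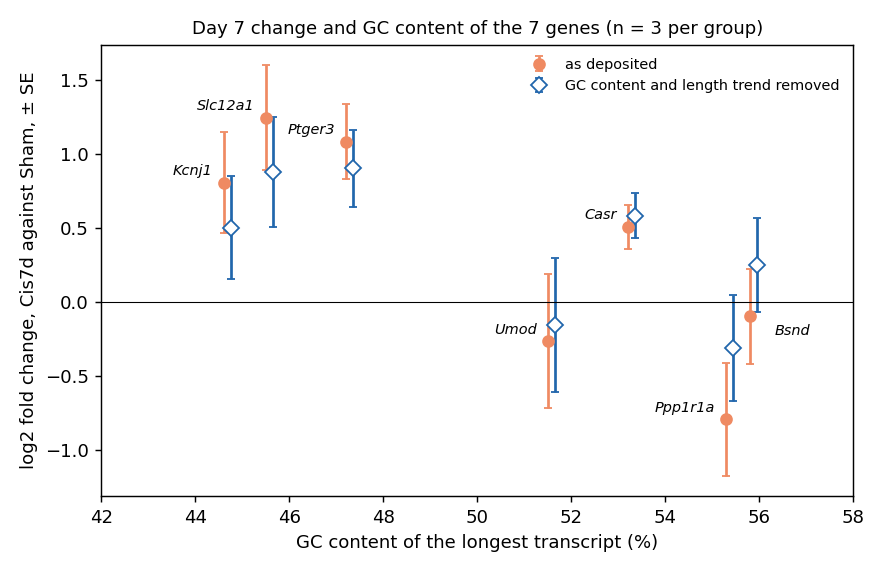
Log2 fold change of each gene in Cis7d against Sham (vertical axis, with SE from limma, 3 libraries per group) by the GC content of its longest transcript (horizontal axis, percent), as deposited (filled circles) and after a GC content and length trend was removed (open diamonds, drawn slightly to the right). Slc12a1 moved to 0.88 and Ppp1r1a to -0.31, both nearer to 0, and Casr moved to 0.58.

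Not all of the genes kept their proportion to Slc12a1. Because FPKM is scaled within a library, the ratio of one gene to Slc12a1 within the same library is free of that scaling. On the log2 scale Umod over Slc12a1 was 2.42, 2.36 and 2.48 in Cis7d and 3.64, 4.06 and 4.11 in Sham, so that Umod was less abundant relative to Slc12a1 in every Cis7d library. Ppp1r1a over Slc12a1 was -0.46, -0.90 and -0.68 in Cis7d and 1.35, 1.48 and 1.29 in Sham, which puts Ppp1r1a below Slc12a1 in Cis7d and above it in Sham. In Cis3d it was 0.66, 0.42 and 0.25, between those groups. All ratios share the denominator Slc12a1, which was itself higher in Cis7d than in Sham (1.24 ± 0.35, limma). Umod (-0.26) and Bsnd (-0.10) were not called there, so their lower day 7 ratios largely restate that rise. The share of all tested genes whose ratio to Slc12a1 separated the groups was not computed.

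Bsnd over Slc12a1 was lower than in Sham at both times, at -3.21 ± 0.60 in Cis3d, -2.91 ± 0.27 in Cis7d and -1.55 ± 0.22 in Sham (SD, n = 3). The day 3 difference from Sham was -1.66 as deposited and -0.63 on log2(FPKM + 1) values with the GC content and length trend removed, without overlap in both. Kcnj1 over Slc12a1 overlapped with Sham at both times, with means of -0.30 in Cis3d, -0.95 in Cis7d and -0.51 in Sham. Ptger3 over Slc12a1 was -2.99 in Cis3d, -4.13 in Cis7d and -4.14 in Sham, and Casr over Slc12a1 was -5.53 in Cis3d, -5.06 in Cis7d and -4.43 in Sham. Against Sham the Ptger3 ratio was higher and the Casr ratio lower in each Cis3d library. On corrected log2(FPKM + 1) values, however, the Casr difference at day 3 was 0.70 with overlapping groups. Without the correction, Casr already fell by less than Slc12a1 on log2(FPKM + 1) values (-1.69 against -2.06). Among 18 such ratio comparisons, groups of 3 against 3 cannot go below p = 0.1 in a two-sided exact permutation test. The 3 ratios of Umod, Ppp1r1a and Bsnd in Cis7d against Sham reached that p (0.15 after Benjamini-Hochberg adjustment over the 18). So did Bsnd, Ptger3, Casr and Ppp1r1a in Cis3d against Sham, and every ratio but that of Bsnd in Cis7d against Cis3d. The Casr ratio changed sign in that last comparison. It was 0.48 higher in Cis7d as deposited and -0.99 on corrected log2(FPKM + 1) values, each without overlap, so its direction depends on the processing. With the GC content and length trend removed from log2(FPKM + 1) values, the Cis7d differences from Sham of Umod, Ppp1r1a and Bsnd were smaller. They were still without overlap, at -1.03 for Umod, -1.19 for Ppp1r1a and -0.63 for Bsnd, against -1.52, -2.06 and -1.36 as deposited. All corrected ratio differences also carry the pseudocount of 1, which the ratios as deposited lack. The part of the GC content and length correction alone was not separated.

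**Figure D4:**
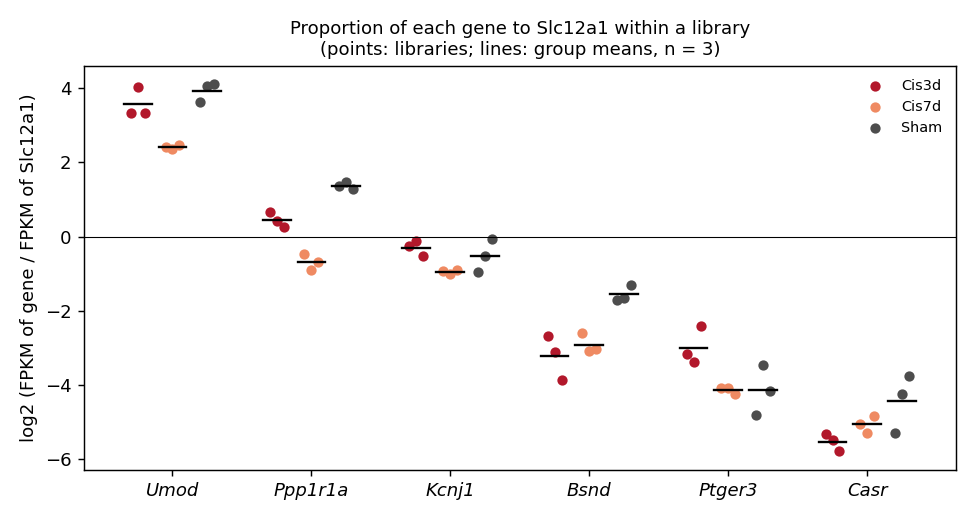
Log2 ratio of the FPKM of each gene to that of Slc12a1 in the same library, with 1 point per library and a line at the mean of 3 libraries, in Cis3d, Cis7d and Sham kidneys. For Umod and Ppp1r1a the Cis7d points lie below all Sham points, and for Bsnd the Cis3d and Cis7d points both do.

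Other genes of the segment were read from 7 lists of 87 genes in all, 75 of which were tested. Of 11 tested genes enriched in the thick ascending limb, all 11 were lower in Cis3d than in Sham (median log2 fold change -2.69). All 11 were higher in Cis7d than in Cis3d. Over all tested genes these shares were 20.6% and 21.7%. Wfdc15b, a whey acidic protein family gene, averaged 15.8 ± 9.08 FPKM in Cis3d and 219.4 ± 84.6 FPKM in Sham (SD, n = 3; log2 fold change -3.77 ± 0.38, adjusted p = 6.54e-05, limma). Egf, which encodes the growth factor precursor made in this segment and the distal convoluted tubule, averaged 5.11 ± 3.46 FPKM in Cis3d and 60.8 ± 14.2 FPKM in Sham (-3.52 ± 0.45, adjusted p = 0.000229, limma). In this list 1 gene, Ppp1r1b, was called at day 7 against Sham, at 15.4 ± 1.96 FPKM in Cis7d and 26.4 ± 9.72 FPKM in Sham (-0.69 ± 0.22, adjusted p = 0.0446, limma). That call did not survive the GC correction (adjusted p = 0.637).

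Among 13 tested partners in salt and cation transport, 8 were lower in Cis3d than in Sham and 1, the sodium-proton exchanger gene Slc9a2, was higher (median -1.09), where 39.3% of all tested genes were called higher. Cldn10, a claudin gene, averaged 9.54 ± 4.37 FPKM in Cis3d and 71.8 ± 4.71 FPKM in Sham (-2.86 ± 0.24, adjusted p = 2.62e-05, limma). Median-of-ratios scaling gave 10 lower and 0 higher in this list.

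In Cis7d the same transport list had 3 genes higher and 1 lower than Sham, with a median of 0.00. These counts are near the 19.3% higher and 10.4% lower of all tested genes. Atp1b1, the beta subunit of the sodium pump, averaged 753 ± 33.7 FPKM in Cis7d and 457 ± 16.2 FPKM in Sham (0.72 ± 0.16, adjusted p = 0.0126, limma). The pump regulator Fxyd2 averaged 309.5 ± 32.7 FPKM in Cis7d and 462 ± 57.9 FPKM in Sham (-0.58 ± 0.14, adjusted p = 0.0144, limma). After the GC correction Atp1b1 (adjusted p = 0.0406) and Slc9a2 (0.0292) were still called, and Fxyd2 (0.259) and Slc9a3 (0.106) were not.

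Of 13 tested genes that regulate Slc12a1 and Kcnj1, 6 were higher and 4 lower in Cis3d than in Sham (median 0.53; 4 higher and 5 lower under median-of-ratios scaling), shares near the 39.3% higher and 20.6% lower of all tested genes. Sgk1, a kinase induced by aldosterone and by cell stress, averaged 46.9 ± 11.2 FPKM in Cis3d and 16.2 ± 9.13 FPKM in Sham (1.58 ± 0.33, adjusted p = 0.00304, limma). Cab39, which encodes the scaffold that activates the cotransporter kinases, averaged 20.8 ± 0.74 FPKM in Cis3d and 8.17 ± 0.80 FPKM in Sham (1.25 ± 0.10, adjusted p = 2.69e-05, limma). Klhl3, an adaptor through which WNK kinases are degraded, averaged 0.49 ± 0.14 FPKM in Cis3d and 6.54 ± 1.0 FPKM in Sham (-2.33 ± 0.14, adjusted p = 6.29e-06, limma). Wnk4 was lower as well (-1.20 ± 0.21), whereas Mal, the most abundant gene of the list in Sham and an apical sorting protein, was at 116 ± 13.3 FPKM in Cis3d and 78.7 ± 36.0 FPKM in Sham and was not called.

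In Cis7d 5 of these 13 regulators were higher than in Sham and none lower, where 19.3% of all tested genes were higher and 10.4% lower. After the GC correction 1 of 13 was called. Cab39 was that gene, at 15.1 ± 0.90 FPKM in Cis7d and 8.17 ± 0.80 FPKM in Sham (0.82 ± 0.10, adjusted p = 0.00176, and 0.0256 after the correction, limma). Wnk1 stood at 0.76 ± 0.16 and Stk39, a kinase that phosphorylates the cotransporter, at 0.70 ± 0.16 against Sham, both called as deposited.

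Of 14 tested genes of hormone receptors and cyclic AMP signalling, 4 were higher and 5 lower in Cis3d than in Sham (3 and 6 under median-of-ratios scaling), where 39.3% of all tested genes were higher and 20.6% lower. Pth1r, the parathyroid hormone receptor, which the proximal tubule also expresses, averaged 13.4 ± 5.77 FPKM in Cis3d and 168 ± 19.7 FPKM in Sham (-3.62 ± 0.25, adjusted p = 1.19e-05, limma). Avpr2, the vasopressin receptor shared with the collecting duct, averaged 0.87 ± 0.52 FPKM in Cis3d and 4.09 ± 0.73 FPKM in Sham (-1.47 ± 0.22, adjusted p = 0.000462, limma). Gnai3, a subunit of the inhibitory G proteins to which EP3 and calcium-sensing receptors couple and which cells of many types express, was higher, at 44.5 ± 1.03 FPKM in Cis3d, 29.8 ± 2.43 FPKM in Cis7d and 10.9 ± 1.83 FPKM in Sham. Its log2 fold changes against Sham were 1.95 ± 0.13 at day 3 (adjusted p = 9.44e-06) and 1.38 ± 0.13 at day 7 (adjusted p = 0.00124), both by limma.

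Among 8 tested genes of protein phosphatase 1 and its inhibitors, 4 were higher in Cis3d than in Sham and 1 was lower, not far from the 39.3% and 20.6% of all tested genes. The lower one was Ppp1r1b, the inhibitor most closely related to Ppp1r1a, at 1.66 ± 0.19 FPKM in Cis3d and 26.4 ± 9.72 FPKM in Sham (-3.31 ± 0.22, adjusted p = 9.85e-06, limma). The catalytic subunit gene Ppp1cb averaged 14.99 ± 0.64 FPKM in Cis3d and 5.64 ± 0.69 FPKM in Sham (1.27 ± 0.12, adjusted p = 3.89e-05, limma). The inhibitor genes Ppp1r2 (1.35 ± 0.10) and Ppp1r14b (1.33 ± 0.17) were higher too, and Ppp1ca, the most abundant gene of the list in Sham, was at 66.3 ± 4.49 FPKM in Cis3d and 60.6 ± 8.27 FPKM in Sham and was not called. In Cis7d 2 genes of this list were higher and 2 lower than in Sham, where 19.3% of all tested genes were higher and 10.4% lower. Ppp1cb (1.3 ± 0.12) was the one still called after the GC correction.

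Around Ptger3, 9 genes of prostaglandin synthesis, transport and its other receptors were tested. In Cis3d 4 were called higher and 2 lower than in Sham, where 39.3% and 20.6% of all tested genes were. The 4 include Ptgs2 and Ptger4, which passed the expression filter through the Cis3d libraries alone. No result is therefore read from the count of higher genes, of which Slco2a1 and Ptges3 were the others. Ptgs2, the inducible cyclooxygenase, was at 5.18, 7.04 and 8.43 FPKM in Cis3d and at 0.08, 0.01 and 0.01 FPKM in Sham. For Ptgs2 and Ptger4 no test is given, because of the way they passed that filter. The macula densa, the plaque of cells at the end of the thick ascending limb, makes this enzyme, as do other cells. Its other markers in the list stayed low in all 9 libraries and were not tested. Nos1 was at no more than 0.18 FPKM, Pappa2 at no more than 0.14 FPKM and Robo2 at no more than 0.61 FPKM. For none of these did a Cis3d library exceed the highest Sham library. Nos1 was at 0, 0.03 and 0.01 FPKM in Cis3d and at 0.18, 0.12 and 0.11 FPKM in Sham. The prostaglandin transporter gene Slco2a1 averaged 9.02 ± 1.75 FPKM in Cis3d and 2.91 ± 0.81 FPKM in Sham (1.36 ± 0.20, adjusted p = 0.000522, limma). Ptger1, which encodes the EP1 receptor, was lower (-1.02 ± 0.38, adjusted p = 0.0435, limma), a call that 9 of 18 alternatives lost.

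Of 11 tested transcription factor genes of the segment, 6 were lower and 1 higher in Cis3d than in Sham. Over all tested genes 20.6% were lower and 39.3% higher. Against Cis3d, 9 of the 11 were higher in Cis7d, as were 21.7% of all tested genes. Irx1, of the Iroquois family, averaged 3.37 ± 1.22 FPKM in Cis3d and 15.6 ± 2.45 FPKM in Sham (-1.95 ± 0.19, adjusted p = 5.74e-05, limma), and the nuclear receptor gene Esrrb stood at -2.11 ± 0.32 (adjusted p = 0.000552, limma). Irx3 was the one that was higher (0.67 ± 0.20, adjusted p = 0.0180, limma), a call lost under median-of-ratios scaling and quantile normalization, which gave 0 higher. In Cis7d 4 of the 11 were higher and 1 lower than in Sham, where 19.3% of all tested genes were higher and 10.4% lower. Irx3 remained called after the GC correction (1.09 ± 0.20 as deposited, adjusted p = 0.00527, limma), whereas Esrrg (1.302 ± 0.293) and Ppargc1a (0.86 ± 0.19) did not.

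**Figure D5:**
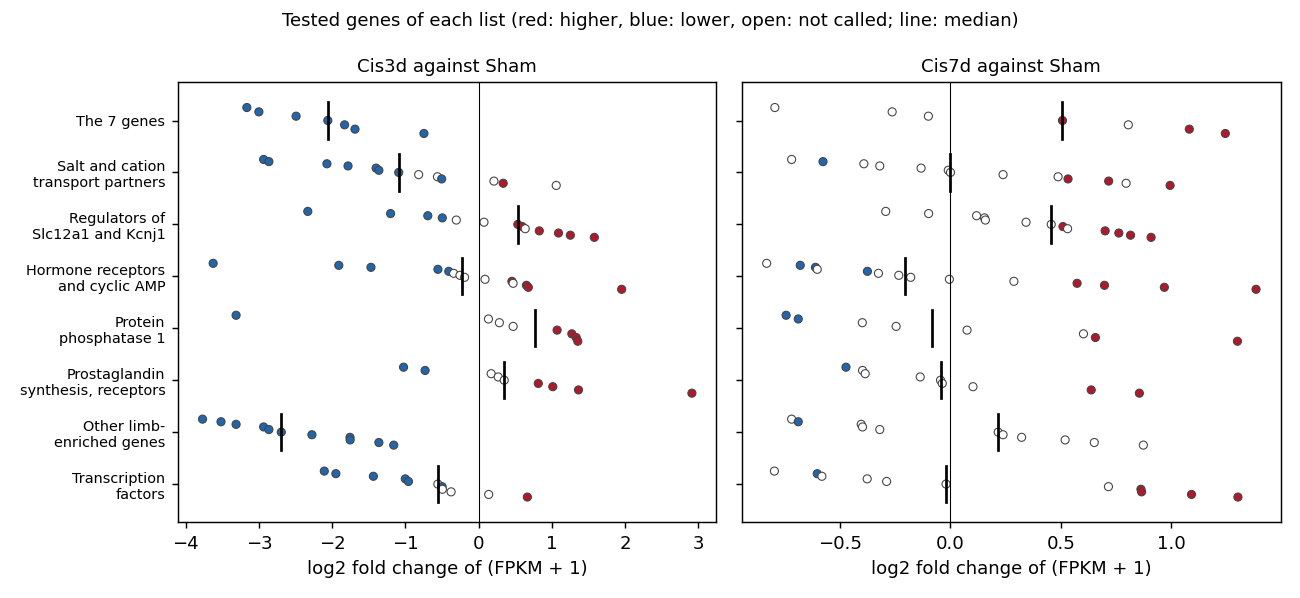
Log2 fold change of every tested gene of the 7 thick ascending limb genes and of each list around them, Cis3d against Sham (left) and Cis7d against Sham (right), with red for called higher, blue for called lower, open for not called and a line at each median. On the left all points of the first row and of the limb-enriched row are blue, with medians of -2.06 and -2.69, and the rows of regulators, phosphatase and prostaglandin genes hold points on both sides of 0.

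Markers of most other tubule segments were lower at day 3 as well, and no test of a difference between segments was made. Of 10 proximal tubule markers 10 were lower in Cis3d than in Sham, and of 7 markers of the distal convoluted and connecting tubule 6 fell. Principal cell markers were lower in 5 of 7 and intercalated cell markers in 4 of 6. Of 7 thin limb markers 3 were higher, 1 was lower and 3 were not called (median 0.53). The thin limb shares are near the 39.3% higher and 20.6% lower of all tested genes. In each segment listed before it the share lower was above that 20.6%. By contrast 7 of 7 tubule injury markers were higher. Among them Krt20 stayed below 1 FPKM in every Sham library and outside Cis3d reached it in Cis7d replicate 2 alone, at 4.34 FPKM. It thus met the filter of 3 libraries only through Cis3d, and its call is no support for a rise. In Cis7d against Sham 19.3% of all tested genes were called higher and 10.4% lower. Of 7 distal convoluted and connecting tubule markers 3 were higher there (median 0.72, and 1 of 7 after the GC correction). So were 1 of 10 proximal tubule and 1 of 6 intercalated cell markers, and 0 of 7 principal cell and 0 of 7 thin limb markers were called. Markers of neutrophils were higher at day 3. Summed over 6 genes, of which S100a9 made up 56.3% to 78.5%, they stood between 22.4 and 86.1 FPKM in Cis3d. In Sham the sum lay between 2.6 and 13.01 FPKM. Mpo and Elane were at no more than 0.05 FPKM and Ly6g at no more than 0.49 FPKM. Of 2 tested neutrophil genes 2 were higher in Cis3d than in Sham, and 0 were called in Cis7d against Sham. The part of these cells in the falls described here was not tested. Summed, with Umod making up 68.0% to 82.3% of the sum, the 7 genes stood between 154 and 584 FPKM in Cis3d, between 1318 and 1531 FPKM in Cis7d and between 1150 and 1912 FPKM in Sham.

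The genes whose profile over the 9 libraries came nearest to the mean profile of the 7 were found among 6778 candidates by root mean square distance of log2(FPKM + 1), taken as the difference from the Sham mean. The nearest was Kcnj10, a basolateral potassium channel gene of the distal nephron, at a distance of 0.22. It had 2.68, 2.98 and 1.23 FPKM in Cis3d, 16.67, 18.96 and 17.93 FPKM in Cis7d, and 12.31, 13.06 and 11.94 FPKM in Sham. Scnn1g, a subunit of the epithelial sodium channel of the collecting duct, followed at 0.27, then Cabcoco1 at 0.28, the insulin-responsive glucose transporter gene Slc2a4 at 0.31, Dmtn at 0.35 and D630024D03Rik at 0.36. The 7 genes themselves lay between 0.35 (Kcnj1) and 0.96 (Ptger3) from their own mean. Of the 6 nearest genes 4 were closer to that mean than Kcnj1. Those 6 were selected for a small distance and the 7 were not, so this says nothing about how alike the 7 are.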

How the data were processed

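Total RNA of 9 mouse kidneys was sequenced with a directional library kit, per the labels' protocols. The submitters' processing notes name the GRCm38 build, FastQC 0.10.1, StringTie and HISAT, with no order. The authors deposited 1 table of FPKM per library; no counts were used, so read depth is unknown and the number of libraries limits the precision. Gene IDs were matched to GENCODE M21. Genes that reached 1 FPKM in 3 or more of the 9 libraries were tested on log2(FPKM + 1) with limma 3.58.1 in R 4.3.3, in a 3-group model with a trended prior and a shared spread, two-sided, with Benjamini-Hochberg adjustment over 13718 genes and a threshold of 0.05. Fold changes on this scale are understated for low genes. The procedure was tested on simulated data. Within-library ratios to Slc12a1 were compared by exact permutation tests. Promoters came from RefSeq, GRCm38.p6.

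The members and lists were chosen with earlier results of these data known. Genes named from each list were those called whose mean reached 1 FPKM in a group, at most 4 per list and comparison by size of change, and the most abundant in Sham, with fewer shown where values repeat; some genes that this rule names are not reported here. Slc9a2 and Irx3 at day 3 were added with their values already seen. The 6 nearest profiles were taken among genes with a mean of at least 5 FPKM. Alternatives changed the pseudocount, filter, scaling, variance model, libraries and block; a correction by splines (5 degrees of freedom) on GC content and transcript length was added after the data were seen.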

Additional observations from a re-analysis of the deposited data

How the results depend on the processing

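All 7 genes were called higher in Cis7d than in Cis3d under each alternative, and 6 or 7 were called lower in Cis3d than in Sham, with Ptger3 the one that was lost. Against 3 genes called in Cis7d against Sham, 1 was called with no filter, 0 with the GC content and length correction, and 0 to 4 when 1 library was left out. Over all genes, calls in Cis7d against Sham numbered 564 with a 2-fold minimum, 856 with the GC correction and 2470 to 4719 with 1 library left out, against 4075; they were 2696, 2699 and 2652 without Cis7d replicates 1, 2 and 3 and 2470 without Sham replicate 2. In Cis3d against Sham they numbered 5104 with the 5 FPKM filter and 3631 with the 2-fold minimum, against 8214, and in Cis7d against Cis3d 4973 and 3279, against 7603. Signs turned, for differences that were not called, in Cis7d against Sham: Umod stood at 0.405 under quantile normalization, and Bsnd at 0.105 after rescaling without mitochondrially encoded genes, at 0.248 with the GC correction, and between -0.244 and 0.11 with 1 library left out (above 0 without Cis7d replicate 3, at 0.026, and without Sham replicate 1, at 0.11). The cause was not tested. With the replicate block, 7, 3 and 7 genes were called in Cis3d against Sham, Cis7d against Sham and Cis7d against Cis3d, and over all genes 8212, 3885 and 7540. Same-numbered libraries correlated between -0.054 and 0.238 in their deviations, not every library correlated best with its own number, and the numbers were not taken as pairs. FPKM without counts gives no counting error, so low values such as those of Casr in Cis3d kidneys carry an unknown one.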
